A study of Tupaia belangeri with 6 samples.

Results

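Globins are heme proteins that bind oxygen and other gases. In vertebrates the hemoglobin chains fill red blood cells and are made from an alpha-like and a beta-like gene cluster, whose members take turns from embryo to adult. Neuroglobin, the product of NGB, is found chiefly in neurons, and cytoglobin, the product of CYGB, is found in fibroblast-like cells, pericytes and some neurons. The expression of both groups was examined in the prefrontal cortex (PFC) of the tree shrew Tupaia belangeri, a small mammal close to primates.

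The genes were those with the names HBQ1, HBG, NGB and CYGB, to which every row named HBA, HBB, HBD, HBE, HBM or HBZ was added, with or without a number. HBQ1 and HBG were chosen by their known female minus male difference in these same animals, so that their values are a description without a test. NGB and CYGB were added as globins of the nervous system. These names gave 6 genes of the 95863 loci measured, of which 4 passed the filter on low values (at least 0.1 TPM in 3 or more animals). Each of these 4 was above that level in every animal.

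RNA with poly(A) tails from the PFC of 3 female (numbered 1, 3 and 4) and 3 male (1, 4 and 5) adult animals was sequenced, with 1 library per animal. The study names no treatment group and no altered allele. Each animal was anesthetized with isoflurane, then given ketamine and pentobarbital, and was dissected after cardiac arrest. In the study's sample overview each male is older than each female, so age and sex cannot be told apart here. The measure is TPM, the transcript abundance per transcript length and relative to the library, which summed to between 950532 and 971492 over the loci of a library. No read counts were at hand and TPM keeps no depth, so that no counting error is given and precision rests on the spread between animals. Bulk tissue was measured, so fewer cells of a type and less RNA per cell cannot be told apart.

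The genes that define cortical neurons were high in all 6 libraries. SNAP25, a synaptic vesicle fusion protein, lay between 3088 and 4861 TPM, and SLC17A7, the vesicular glutamate transporter of cortical excitatory neurons, between 783 and 1569 TPM. RGS9, a marker of striatal neurons, stood at 48.0, 43.7 and 1.52 TPM in females 1, 3 and 4 and at 54.6, 0.355 and 0.392 TPM in males 1, 4 and 5. Females 1 and 3 and male 1 thus stood apart from the other 3 libraries in a gene of a neighbouring brain region, and the globin differences are also given within the animals with RGS9 under 2 TPM. Over all genes tested, male 5 was the library least like the others, with r of log2(TPM + 1) of 0.859 to 0.896 to each of them, against 0.904 to 0.957 between the other libraries.

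In the alpha-like cluster, the tables named 2 genes. HBQ1, the theta chain gene, lay on chromosome 2 from 83287598 to 83295754 on the minus strand of the TS_3.0 build (locus MSTRG.28180). HBZ, the embryonic zeta chain gene, lay 1343 bp beyond it on the same strand, from 83297097 to 83298500. The end of LUC7L, a splicing factor gene on the plus strand, overlapped the HBQ1 locus by 1942 bp, and the library protocol names no step that keeps the strand. LUC7L itself was measured at 46.2 to 113 TPM.

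In the beta-like cluster, HBG, named for the gamma chain of the fetus, lay on chromosome 17 from 26928336 to 26942724 on the plus strand (locus MSTRG.21272). HBE1, the embryonic epsilon chain gene, ended 5903 bp before it, spanning 26898745 to 26922433. An unnamed minus-strand locus within HBG was listed at 0 in all animals.

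NGB was placed on chromosome 4 from 39275696 to 39337943 on the minus strand (locus MSTRG.47358). Its locus of 62248 bp reached 582 bp into GSTZ1, a glutathione transferase gene on the other strand, which lay between 3.82 and 5.47 TPM. The NGB locus overlapped 5 loci, of which only GSTZ1 was named, and none was above 7.97 TPM in any animal. In the RefSeq gene order of the TupChi_1.0 assembly, POMT2, a protein mannosyltransferase gene, lies between NGB and GSTZ1, and no locus of the tables had that name. Whether the NGB locus holds transcripts of POMT2 cannot be read from gene-level tables.

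CYGB was placed on chromosome 15 from 47719718 to 47751793 on the plus strand (locus MSTRG.17506). It overlapped 4 unnamed loci, none above 5.14 TPM in any animal, and no named one. PRCD, the gene before CYGB in the RefSeq order, had no row of its name either, nor had TMEM63C on the far side of NGB, and whether the CYGB or NGB locus holds their transcripts cannot be read from these tables.

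**Figure D1:**
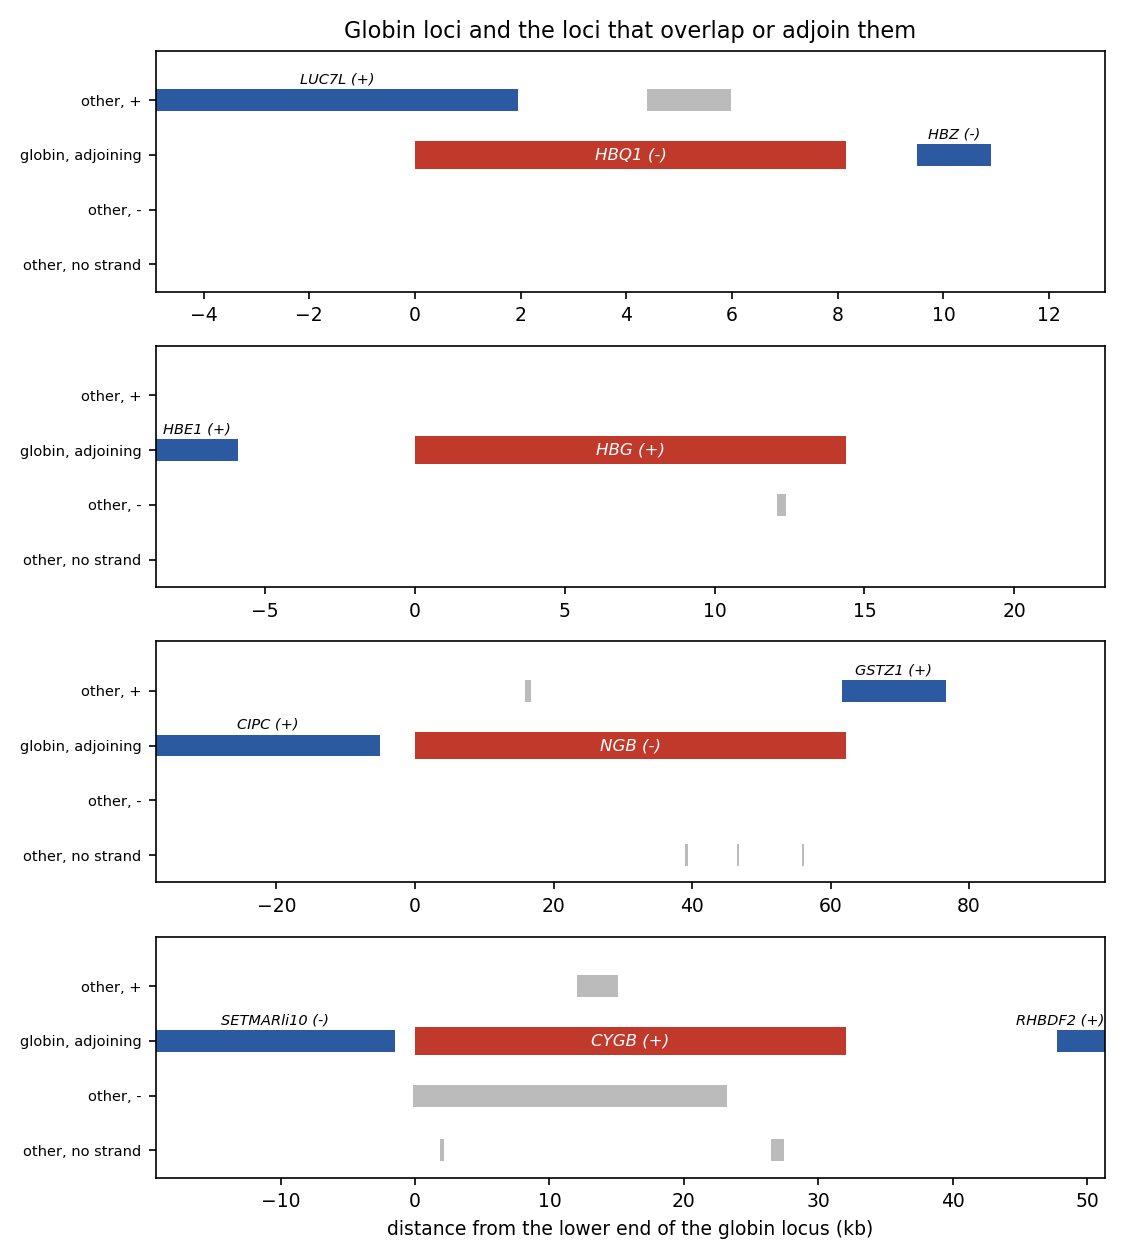
Map of the HBQ1, HBG, NGB and CYGB loci (red, from top to bottom), with the overlapping or nearest named loci (blue) and the overlapping unnamed loci (grey), by strand. The x axis is the distance in kb from the lower end of each globin locus, and bars cut off at the panel edge go on. LUC7L overlaps HBQ1 by 1942 bp and GSTZ1 overlaps NGB by 582 bp, both from the other strand.

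No locus was named HBA, HBB, HBD or HBM, so that no row bore the name of a main adult alpha or beta chain gene. Whether a locus of another name holds these genes cannot be read from the tables. No locus was named MB, for myoglobin, the oxygen store of muscle, either. RefSeq gives the symbol of HBE1 alone among the hemoglobin genes, and places 1 protein-coding gene without a symbol between NPRL3 and LUC7L, the genes that flank the alpha-like cluster in these tables. Reads of near-identical globin copies may be shared, and the names HBQ1 and HBG are therefore used for the annotated loci and not for a certain chain.

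Both expressed hemoglobin loci were high in every female. HBQ1 reached 723, 1253 and 825 TPM in the females numbered 1, 3 and 4, and 22.3, 47.2 and 54.4 TPM in males 1, 4 and 5. The sexes did not overlap, and the lowest female had 13.3 times the TPM of the highest male. The means were 934 ± 281 TPM in the females and 41.3 ± 16.8 TPM in males (SD, n = 3 each), a 22.6-fold difference of the means and 4.52 on the log2(TPM + 1) scale.

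HBG reached 549, 1286 and 643 TPM in the females numbered 1, 3 and 4, and 40.3, 26.5 and 46.0 TPM in males 1, 4 and 5. Again the groups did not overlap, with the lowest female at 11.9 times the highest male. The means were 826 ± 401 TPM in the females and 37.6 ± 10.02 TPM in males (SD, n = 3 each), which is 22.0-fold and 4.35 on the log2(TPM + 1) scale. Of all 28740 genes tested, 0.0104% were called higher in females and 0.00696% higher in males by limma at an adjusted p under 0.1, while 4.82% had every female above every male and 4.99% the reverse. Since HBQ1 and HBG were picked by this contrast, their place among those genes is not a result.

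The females had the same order at both hemoglobin loci in TPM, female 3 above female 4 above female 1. Among males, male 5 was highest for both, while HBQ1 was lowest in male 1 and HBG lowest in male 4. For females 1, 3 and 4 the ratio of HBQ1 to HBG came to 1.32, 0.9748 and 1.28. For males 1, 4 and 5 it came to 0.554, 1.78 and 1.18. The mean ratio was 1.19 ± 0.188 in females and 1.17 ± 0.614 in males (SD, n = 3 each). Both means were near parity, but the male mean joins males 1 and 4, which lay away from 1 in opposite directions.

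In terms of rank by TPM, HBQ1 took place 172, 75 and 145 in females 1, 3 and 4, and place 6115, 3795 and 3306 in males 1, 4 and 5. For HBG the same females had places 233, 70 and 208, and the same males 4087, 5673 and 3827. Together the pair held between 0.131% and 0.263% of all TPM in the females and between 0.00659% and 0.0105% in males. With all genes, HBQ1 and HBG included, rescaled to the library total without the hemoglobin loci, the log2 differences were 4.50 and 4.34, respectively.

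The embryonic genes were at or near 0. HBE1 was listed at 0 TPM in all 6 animals. HBZ was listed at 0 in 5 animals and at 1.46 TPM in female 4, with a mean coverage of 2.24 reads over the locus.

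**Figure D2:**
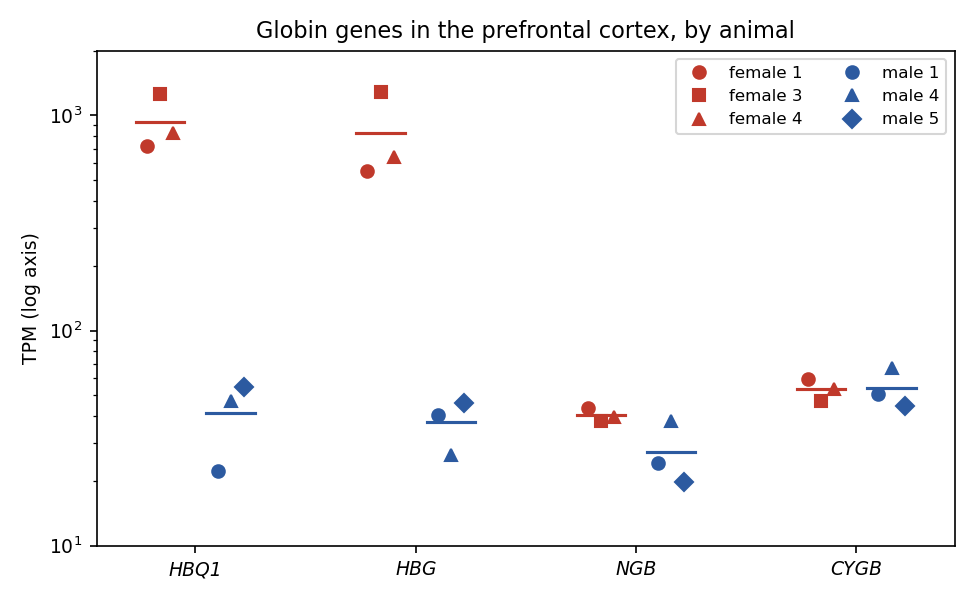
TPM (log axis) of HBQ1, HBG, NGB and CYGB in each of 3 female (red) and 3 male (blue) animals, with horizontal lines at the mean of each sex. HBQ1 and HBG lie above 549 TPM in the females and under 54.4 TPM in the males, whereas NGB and CYGB lie between 19.7 and 67.1 TPM in all animals.

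Neither neural globin was called between the sexes. NGB stood at 43.5, 38.1 and 39.6 TPM in females 1, 3 and 4, and at 24.3, 38.1 and 19.7 TPM in males 1, 4 and 5. Males 1 and 5 were below all females, and male 4 was just above female 3, so that the groups overlapped. The lowest value was that of male 5, the library least like the others. The means were 40.4 ± 2.79 TPM in the females and 27.4 ± 9.56 TPM in males (SD, n = 3 each). The female minus male difference was 0.59 on the log2(TPM + 1) scale, with a standard error of 0.25 and a 95% interval of 0.02 to 1.17. By limma its p was 0.0439 before adjustment and 0.925 after adjustment over the autosomes, so NGB was not called. Without male 4 the difference was 0.85 and without male 5 it was 0.39, with adjusted p of 0.417 and 1.0 by limma.

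CYGB stood at 59.9, 47.3 and 53.4 TPM in females 1, 3 and 4, and at 50.9, 67.1 and 44.6 TPM in males 1, 4 and 5. The highest and the lowest animal were both male, and every female lay between them. The means were 53.5 ± 6.29 TPM in the females and 54.2 ± 11.6 TPM in males (SD, n = 3 each). The difference was -0.0031 on the log2(TPM + 1) scale with a standard error of 0.20 and a limma adjusted p of 0.999. Its 95% interval, -0.46 to 0.46, leaves room for a difference of about that size in either direction. The sign of so small a difference turned with FPKM in place of TPM and with female 3 or male 4 left out.

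CYGB was measured above NGB in 6 of 6 animals. The mean difference was 0.69 ± 0.35 on the log2(TPM + 1) scale (SD, n = 6), with p = 0.03125 by an exact two-sided permutation test with sign flips, the smallest p that 6 animals allow. For females 1, 3 and 4 the TPM ratio of CYGB to NGB came to 1.38, 1.24 and 1.35. For males 1, 4 and 5 it came to 2.09, 1.76 and 2.26. All males had the larger ratio, at a mean of 2.04 ± 0.254 against 1.32 ± 0.0714 in females (SD, n = 3 each). This separation was seen in the values and has no test.

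The size of this level difference depended on the measure. By coverage, the mean number of reads over the bases of the locus, CYGB exceeded NGB by 2.29 on the log2(coverage + 1) scale, again in all animals. Coverage and TPM were in a fixed lowest proportion in 44.3% to 55.4% of the loci above 0.5 TPM in a library, to within 1 percent. CYGB had that proportion in all animals. NGB had 2.52 to 3.89 times as much TPM per coverage, HBQ1 2.04 to 2.26 times and HBG 2.13 to 2.48 times, so the order of levels across the globins is given for TPM.

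Set against the neural globins, the hemoglobin loci were the greater part in all females and in male 5. The sum of HBQ1 and HBG was 12.3, 29.8 and 15.8 times the sum of NGB and CYGB in females 1, 3 and 4, in TPM. In males 1, 4 and 5 the same ratio was 0.833, 0.701 and 1.56. On the log2 scale the ratio averaged 4.17 ± 0.656 in the females and -0.04 ± 0.607 in males (SD, n = 3 each). By coverage the ratios were lower, 8.35 to 19.3 in females and 0.432 to 0.835 in males. As the hemoglobin loci were picked by their difference between the sexes, this contrast is given without a test. The sum of NGB and CYGB itself was 85.3 to 103 TPM in the females and 64.3 to 105 TPM in males.

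In TPM, the order of the levels within an animal differed between the sexes in most animals. In all females both hemoglobin loci came first, then CYGB, then NGB. In males 1 and 4 CYGB was the highest of the globins. In male 5 the order was that of females 1 and 4, HBQ1, HBG, CYGB and NGB, though HBQ1 and CYGB there were only 54.4 and 44.6 TPM. By coverage CYGB was the highest of the globins in all 3 males, male 5 included, at 55.4 against 31.3 for HBQ1. The ranges of HBQ1 and HBG overlapped each other in both sexes. In males they also overlapped those of NGB and CYGB, whereas the ranges of NGB and CYGB were apart within each sex.

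**Figure D3:**
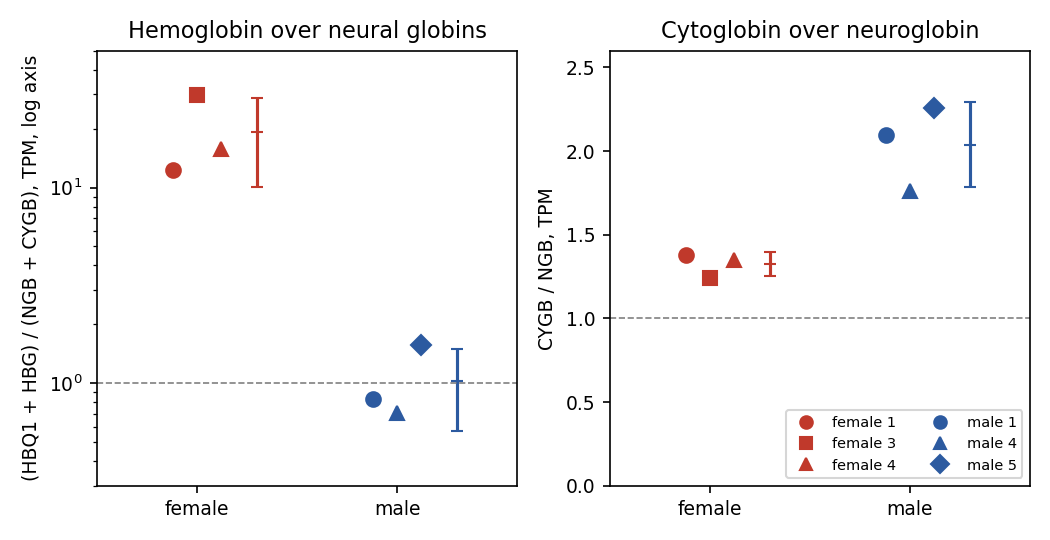
Ratios of TPM in each animal, with the mean and SD of each sex beside the points. Left, the sum of HBQ1 and HBG over the sum of NGB and CYGB on a log axis, at 12.3 to 29.8 in females and 0.701 to 1.56 in males. Right, CYGB over NGB on a linear axis, above 1 (dashed line) in all 6 animals.

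Among the animals with RGS9 under 2 TPM (female 4 and males 4 and 5), a comparison added after the data were seen with 1 female, the log2 differences were 3.998 for HBQ1, 4.16 for HBG, 0.51 for NGB and -0.03 for CYGB. Without male 5 they were 4.76, 4.51, 0.39 and -0.13.

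To place the globins among genes of related function, 17 lists with 130 genes were followed. Of these, 104 genes had a row and 83 passed the filter, and limma called 0 of them, with 9 (10.8%) at an unadjusted p under 0.05, beside 1439 (5.01%) of all 28740 genes tested. All females exceeded all males in 13.3% of the 83 genes and all males exceeded all females in 6.02%, beside 4.82% and 4.99% of all genes tested. The median female minus male difference was 0.09 over the listed genes and -0.03 over all genes tested, on the log2(TPM + 1) scale.

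Of 19 erythroid genes other than hemoglobin, 15 had a row, and 8 of these did not pass the filter and stayed at or under 0.368 TPM in every animal. A listed 0 in these tables need not mean absence, since BLVRB and HMOX2, widely expressed genes of heme breakdown, were listed at 0 in all animals and at 0 to 0.211 TPM, respectively. The 8 included SLC4A1, the anion exchanger of the red cell membrane, and KLF1 and GATA1, the transcription factors of the erythroid line. ALAS2, which starts heme synthesis in red cell precursors, was at 2.38, 3.36 and 0.809 TPM in females 1, 3 and 4 and at 0, 0.0460 and 0.779 TPM in males 1, 4 and 5. The groups did not overlap, but female 4 and male 5 were close, and the log2 difference of 1.28 had a limma adjusted p of 0.967 over the X chromosome. AHSP, the chaperone of free alpha chains, was at 12.8, 10.3 and 16.5 TPM in the females and at 6.20, 10.03 and 10.8 TPM in the males, with overlap. TRIM58, a ubiquitin ligase of late red cell precursors, was at 4.19 to 4.88 TPM in the females and 5.31 to 6.12 TPM in males, without overlap and with a difference of -0.26, and HEMGN, hemogen, had a difference of -0.02. Of the 7 tested genes of the list, 2 had every female above every male and 1 the reverse.

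The summed TPM of the erythroid list was 78.3 to 85.7 in females and 61.5 to 75.3 in males. The genes with the highest mean in it were SLC25A37, a mitochondrial iron importer, at 27.7 to 33.6 TPM over all animals, SELENBP1, a selenium-binding protein, at 13.9 to 21.1 TPM in the females and 9.23 to 11.5 TPM in males, and FECH, which inserts iron into heme, at 10.6 to 14.2 TPM. These are also expressed outside red cells. The median difference over the 7 tested genes was 0.04. What part the erythroid list has in the hemoglobin difference was not tested.

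Among 9 transcription factors of globin genes, 4 passed the filter and limma called 0. BCL11A, a repressor of gamma globin that also acts in cortical neurons, lay between 95.7 and 138 TPM. ZBTB7A, another repressor of gamma globin, lay between 63.7 and 155 TPM. LDB1, the adaptor that links enhancer and promoter, was at 60.6 to 68.0 TPM in the females and 44.2 to 57.5 TPM in males, with a difference of 0.37 and a limma adjusted p of 0.925. GATA1 and NFE2 were listed at 0 in all animals.

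For heme synthesis, 7 of 9 enzymes were tested, limma called 0, and every female exceeded every male in 3 of them. UROD, the fifth enzyme of the route, was at 79.9 to 92.3 TPM in the females and 40.5 to 70.7 TPM in males, a log2 difference of 0.68 with a limma adjusted p of 0.925. CPOX, another of these 3, was at 20.4 to 24.2 TPM in the females and 11.6 to 14.2 TPM in males. The difference of CPOX was 0.75, with a limma adjusted p of 0.925. ALAS1, the housekeeping form of the first enzyme, was at 93.2 to 124 TPM in the females and 70.1 to 93.8 TPM in males. ALAD was at 9.33 TPM in female 4 and between 47.9 and 64.7 TPM in the other animals. The median over the list was 0.34.

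For the clearance of hemoglobin and heme, 4 of 9 genes were tested and none was called by limma, whose smallest adjusted p there was 0.925. LRP1, a receptor for the heme-hemopexin complex among many ligands, was at 49.6 to 104 TPM over the animals. HMOX1, the inducible heme oxygenase, was at 7.05, 7.59 and 3.12 TPM in females 1, 3 and 4 and at 7.69, 7.49 and 12.96 TPM in males 1, 4 and 5. HPX, hemopexin, was at 0.952 to 3.11 TPM. CD163, the scavenger receptor for hemoglobin on macrophages, was listed at 0.

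Neuroglobin and cytoglobin react with nitric oxide, and cytochrome b5 with its reductase can reduce oxidized globin. None of the 5 tested genes of this list was called by limma. CYB5R3, the reductase, was at 120 to 153 TPM in the females and 85.2 to 136 TPM in males, and CYB5A at 32.0 to 59.2 TPM over all animals. GUCY1B1, a subunit of the nitric oxide receptor, was at 259 to 465 TPM.

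The 4 tested oxygen-sensing genes overlapped between the sexes. EPAS1 lay between 44.3 and 72.7 TPM, ARNT between 18.0 and 37.5 TPM and VHL between 36.7 and 42.0 TPM, with limma adjusted p of 0.932 or more over the list. Of the genes that rise under hypoxia, 10 were tested, 0 were called by limma, and 2 had separate sexes. LDHA, lactate dehydrogenase A, was at 125 to 144 TPM in the females and 88.1 to 123 TPM in males, with a difference of 0.41 and a limma adjusted p of 0.925. SLC2A1, the glucose transporter of the vessel wall, overlapped at 81.7 to 139 TPM, as did BNIP3, a mitochondrial protein, at 125 to 179 TPM.

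Markers of other blood cells and of vessels gave no called gene by limma either. The summed TPM of the platelet markers was 15.9 to 17.5 in females and 12.1 to 17.8 in males, led by ITGA2B at 5.79 to 13.3 TPM, GP9 at 1.896 to 6.12 TPM and TUBB1 at 0.347 to 1.53 TPM. The neutrophil and monocyte markers summed to 99.9 to 148 TPM in the females and 95.01 to 112 TPM in males. CSF3R, the receptor for a granulocyte growth factor, made most of that sum, at 83.3 to 130 TPM, with S100A8 at 5.82 to 15.1 TPM and CD14 at 1.09 to 1.94 TPM.

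The lymphocyte markers summed to 27.2 to 32.5 TPM in the females and 15.2 to 25.9 TPM in males. The largest part of that sum was CD79A, a chain of the B-cell receptor, at 20.6 to 30.4 TPM in the females and 10.5 to 21.1 TPM in males. CD2 was at 1.91 to 6.89 TPM, MS4A1 at or under 0.398 TPM and CD3E at 0. CLDN5, the tight junction protein of brain endothelium, was at 33.5 to 60.7 TPM in the females and 23.2 to 28.9 TPM in males, with a difference of 0.83 and a limma adjusted p of 0.925. PECAM1, another endothelial marker, overlapped at 252 to 410 TPM, as did ESAM at 25.8 to 37.6 TPM. FLT1, a receptor for vascular growth factors, was at 27.1 to 31.7 TPM in the females and 23.2 to 26.8 TPM in males. With CLDN5 it made 2 of the 7 endothelial genes with every female above every male, and none had the reverse. The endothelial sum was 405 to 469 TPM in the females and 364 to 527 TPM in males. PECAM1 made most of it in every animal, so the overlap of the sums says little of the other endothelial genes.

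Markers of the cell types in which CYGB is known were also followed. The pericyte markers that had a row, PDGFRB and NOTCH3, summed to 22.8 to 25.5 TPM in the females and 16.7 to 21.6 TPM in males. The fibroblast markers summed to 19.8 to 27.9 TPM in the females and 43.8 to 65.6 TPM in males. DCN, decorin, was part of that gap, at 5.60, 3.80 and 4.24 TPM in females 1, 3 and 4 and at 31.9, 30.4 and 10.8 TPM in males 1, 4 and 5. Its difference was -2.07, without overlap, and the limma adjusted p was 0.925. COL1A1 was at 6.42 to 7.43 TPM in the females and 9.12 to 11.2 TPM in males, and COL1A2 at 5.67 to 15.2 TPM in all. Every male was above every female in 3 of the 6 fibroblast genes tested, and every female above every male in 1 of the 2 pericyte genes.

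Markers of neuron groups overlapped between the sexes in their sums, and SNAP25 was the largest part of the cortical sum. NEUROD6, also in the cortical list, was at 89.9 to 108 TPM in the females and 110 to 145 TPM in males, without overlap. Its difference was -0.43, with a limma adjusted p of 0.925. CAMK2A, a kinase of excitatory synapses, lay between 1094 and 2217 TPM. SST and NPY, peptides of the interneurons that also make nitric oxide, lay between 437 and 805 TPM and between 95.7 and 323 TPM. Of the other striatal genes, PENK and TAC1 lay between 98.9 and 216 TPM and between 10.6 and 232 TPM, and were highest in females 1 and 3 and male 1, the libraries with high RGS9. DRD1, a dopamine receptor, lay between 1.20 and 7.06 TPM, with male 4 above male 1. For the choroid plexus, TTR, the carrier of thyroid hormone, was at 0.333 to 6.39 TPM. AQP1, a water channel that red cells also carry, was at 4.27 to 5.05 TPM in the females and 1.73 to 2.04 TPM in males, with a difference of 0.95 and a limma adjusted p of 0.925. FOLR1 was at 0.0726 to 1.21 TPM in the females and 1.16 to 8.86 TPM in males. The part of these cell types in the globin values was not tested.

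**Figure D4:**
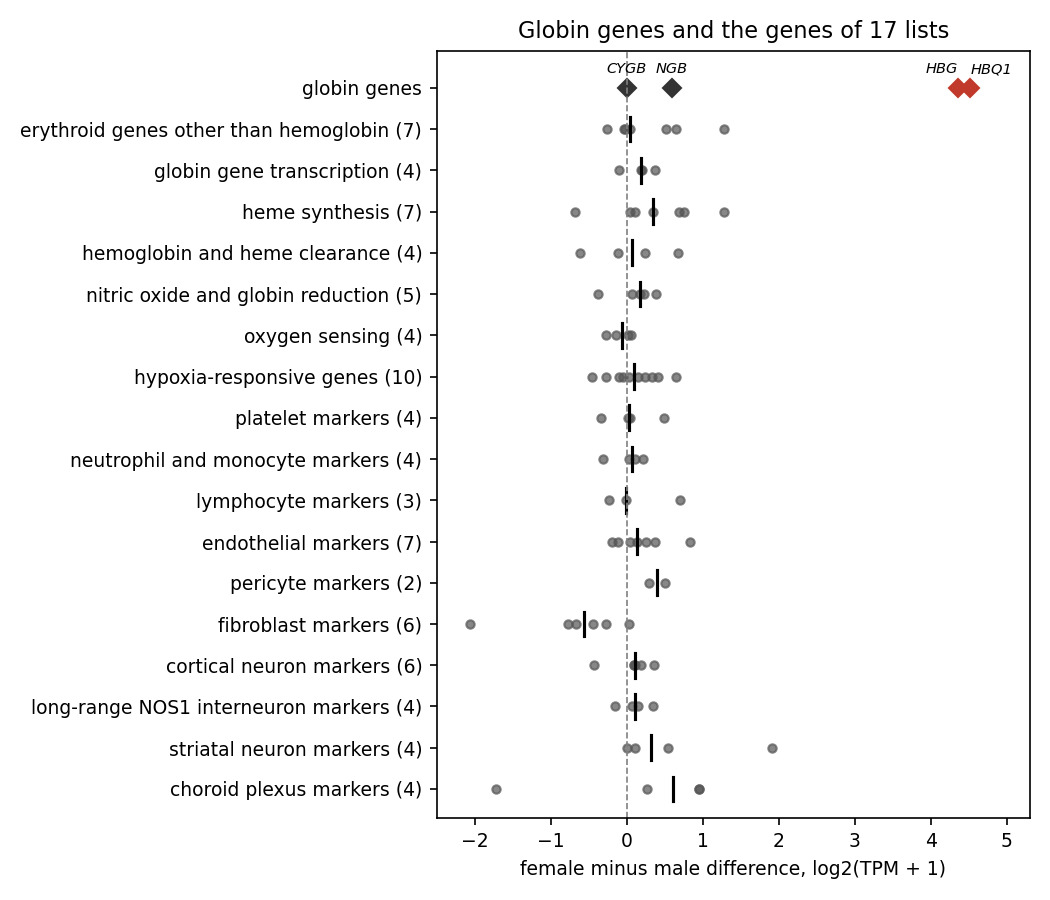
Female minus male difference on the log2(TPM + 1) scale (x axis) of the 4 expressed globin genes (diamonds) and of the tested genes of 17 lists (circles, with the number tested in parentheses and a bar at the median). HBG at 4.35 and HBQ1 at 4.52 lie to the right of all listed genes, whose differences reach 2.07 in size, and CYGB and NGB lie among them.

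The genes that ran most alike with each globin were ranked by Pearson's r of log2(TPM + 1) over the 6 animals, out of 12781 named genes with a strand, as a description. For HBQ1 these were ATP6V1E2 and TSORFli387, both listed at 0 in the males, then HBG, RPL17li32 and RPL21li93, all at r = 0.98. For HBG they were ATP6V1E2, ADAMTS4, POP4, HAT1li1 and AIFM2, at r = 0.98 to 0.99. The animals fell into separate clusters by sex in the hemoglobin loci and in each of these genes, so that r ranks likeness there and no more. ADAMTS4, a protease of the brain matrix, was at 37.2 to 38.5 TPM in the females and 22.0 to 25.2 TPM in males, a far smaller gap than that of HBG.

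For NGB the most alike were SLC25A29, ATG4D, MTCH1, GYS1 and SLC25A11, at r = 0.994 to 0.998. SLC25A29, a carrier of basic amino acids in the mitochondrial membrane, was at 97.1, 80.3 and 88.1 TPM in females 1, 3 and 4 and at 49.3, 82.0 and 36.7 TPM in males 1, 4 and 5. It had the NGB order of high females and male 4 above low males 1 and 5. At r of 0.95 or more, 106 genes followed NGB, against 21 for HBQ1, 22 for HBG and 11 for CYGB. For CYGB the nearest were CA7, TRIB3, THEM4, RCBTB2 and PAFAH2, at r = 0.97 to 0.99. CA7, a brain carbonic anhydrase, was at 23.0, 17.1 and 20.8 TPM in the females and at 20.1, 30.2 and 16.03 TPM in the males, with male 4 highest and male 5 lowest, as for CYGB. All these genes share the same 6 libraries and their composition.

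The flanking genes are given for their values only, since HBQ1 and HBG were chosen by a large difference. LUC7L had a female minus male difference of 0.51 and NPRL3, on the far side of HBZ, of 0.42, with limma adjusted p of 0.925 for each and overlapping sexes. FAM234A, next to LUC7L, had a difference of 0.34. Near HBG, the olfactory receptor genes OR51Q1li3 and OR52A5 were at or near 0. CIPC, a circadian regulator next to NGB, was at 120 to 172 TPM with a difference of 0.18. Beside CYGB, SETMARli10 was at 63.6 to 98.6 TPM with a difference of -0.17, and RHBDF2, a rhomboid protein gene, was at 2.62 to 5.28 TPM with a difference of -0.09.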

How the data were processed

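The authors mapped the reads to the TS_3.0 genome with HISAT2 2.2.1, assembled transcripts in each animal with StringTie 2.2.1, merged them with the reference annotation and measured the merged loci in each animal, without pooling. The deposited tables hold TPM, FPKM (a constant multiple of TPM in a library) and coverage (mean depth over a locus, not scaled to the library). They hold no counts, so that the count test of the study was not repeated. At the same adjusted p threshold, that test called many more autosomal genes between the sexes than limma did here. A gene that limma did not call is therefore not shown to be equal between the sexes.

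Loci of the same gene ID and chromosome were summed. Genes that reached 0.1 TPM in no fewer than 3 animals entered a fit with limma 3.58.1 in R 4.3.3 on log2(TPM + 1), with a mean-variance trend, no covariate and Benjamini-Hochberg adjustment within autosomes and within the X chromosome, at 0.1. Loci on the X between 4542400 and 6144400, or below 3132930 on chromosome 26, were left out, as in the study. Paired levels were tested by exact sign flips in Python 3.11.15 with scipy 1.17.1, and figures drawn with matplotlib 3.10.9. The fit was tested on simulated data. Replicates are separate animals.

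Named were all globin rows, the called genes of each list, otherwise its 3 genes of highest mean TPM and those with separate sexes and a difference of 1 or more, the 5 most alike genes of each globin, and neighbouring genes. AHSP, TRIM58, HEMGN, SLC4A1, KLF1, GATA1, NFE2, CPOX, CD163, BLVRB, HMOX2, NEUROD6, DRD1, FLT1 and CD3E were named after their values were seen. The members and lists were chosen with earlier results of these data known. Gene order came from the RefSeq table of TupChi_1.0, which holds 16150 named protein-coding genes, 72.9% of them with a row of that name here. The alternatives are in the closing section.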

Additional observations from a re-analysis of the deposited data

How the results depend on the processing

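The log2 differences of HBQ1 and HBG kept their sign and moved by less than 1 SD of the more variable sex under the alternatives run for each, over 3.998 to 4.76 and 3.98 to 4.60 (another filter on low values cannot move them). The lowest HBQ1 value is from the 3 animals with RGS9 under 2 TPM, a fit added after the data were seen, with 1 female. NGB stayed positive and was not called by limma under its alternatives, of which that fit is too small to count, over 0.39 to 0.85 with adjusted p of 0.417 to 1.0. CYGB was not called by limma either (adjusted p of 0.842 to 1.0), but its sign turned with FPKM (0.0312), and with each animal left out in turn it ranged from -0.13 to 0.16. CYGB minus NGB stayed positive, from 0.60 to 2.29, the upper end by coverage. With each animal left out it was 0.60 to 0.77 at p = 0.0625, the smallest p that an exact test of 5 animals allows. The log2 ratio of hemoglobin to neural globins, averaged over all 6 animals of both sexes (2.06), ranged from 1.34 (coverage) to 2.58, a mean that stands for neither sex. Of the autosomal genes, limma called 4, against 2 with FPKM, 2 with the replicate block, 0 without the trend (where 1461 had an unadjusted p under 0.05) and 2 to 5 with each animal left out. It called 2 without female 1 and 2 without male 5. Numbers 1 and 4 occur in both sexes but mark different animals. Their deviations correlated at 0.00098 and 0.038, so no pairing by number was seen in them. RGS9 was nevertheless high in both animals numbered 1 and low in both numbered 4. In the study's bisulfite data, female 4 and male 4 both had a lower mapping efficiency. Whether animals of the same number shared a batch was not tested. In the fit with the replicate block the differences were 4.53 (HBQ1), 4.14 (HBG), 0.43 (NGB) and -0.05 (CYGB). HBZ was above 0 in 1 animal, and without counts its error cannot be given.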

Other observations

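Androglobin, ADGB, a large globin known from testis and ciliated cells, was named after its values were seen. Its locus on chromosome 3 from 20088908 to 20370453 reached 10.9, 12.5 and 10.2 TPM in females 1, 3 and 4 and at 8.56, 12.9 and 11.1 TPM in males 1, 4 and 5. The lowest and the highest animal were both male.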
